A study of Mus musculus with 4 samples.

Results

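G protein-coupled receptors named Gpr (mostly orphans, whose ligand was unknown when they were named) and Adgr (adhesion receptors) were followed in astrocyte preparations from mouse cerebral cortex at postnatal day 5. Members were the protein-coding genes with a Gpr name made of a number and at most 1 letter, or with an Adgr family name. Gpr17 and Gpr34 were not included. The rule found 80 members among 23475 listed genes, of which 24 were adhesion receptors and 56 carried a Gpr name. Another 17 genes of the GENCODE M21 annotation that fit the name rule, Gpr65 and Gpr132 among them, were not analysed here. The libraries labelled KO came from PD1cKO-Cx3 mice, named for a conditional knockout of PD-1, an immune checkpoint receptor encoded by Pdcd1. The WT libraries came from PD1fl/fl mice, which carry the floxed gene. Each group had 2 RNA-seq libraries. The labels do not spell out the promoter behind the deletion. They also do not say whether a library pooled animals or came from an animal of its own. The p-values therefore measure only the spread between these libraries, which may be technical in WT.

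Typical orphan and adhesion receptors pass signals through heterotrimeric G proteins, and many have no agreed ligand. Members were chosen by name and all are called receptors here, also those described below as endomembrane proteins. Adhesion receptors have long extracellular parts that bind matrix or cell-surface partners, and most are cut into a pair of fragments that stay together at the membrane. In the developing cortex members of these families take part in neuron positioning, synapse formation, myelination, vessel growth into the brain and the movement of immune cells.

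Counts per library summed to 16103987 in KO 1 and 16405245 in KO 2, and to 16961160 and 14224519 in WT 1 and WT 2. The targeted gene does not check the labels, since Pdcd1 had 20 counts in the library labelled KO 2 and none listed in the others. KO 2 also stood apart in sex-linked transcripts, with Y-linked Ddx3y at 2472 counts and Xist at 0. Elsewhere Ddx3y was at 0 and Xist at 6732 to 8564 counts. The KO-labelled libraries were thus not copies of the same RNA. Whether this difference bears on the 6 X-linked members, Gpr165 among them, was not tested. Astrocyte markers were abundant in all libraries, with the 18 listed markers summing to 15603 and 13418 CPM (counts scaled to a common depth, on TMM-scaled library sizes) in the KO-labelled pair and to 15429 and 15273 CPM in WT. The preparations also held transcripts of other cells. Markers of microglia and macrophages summed to 5711 and 4667 CPM in the KO-labelled pair and to 1147 and 1594 CPM in WT. All 24 of these markers had a log2 fold change above 0, and 1, P2ry12, passed the test. Pf4 had 86 and 14 counts in the KO-labelled pair and 2 and 1 in WT, and Lyve1 had 349 and 32 in the KO-labelled pair and 16 and 0 in WT. Endothelial markers summed to 1206 and 716 CPM in the KO-labelled pair and to 607 and 352 CPM in WT.

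Promoter windows of Gpr183, Gpr84 and Gpr165 are shown as examples from the receptors that were higher in both KO-labelled libraries. The 3 genes and the motif were chosen after their values were seen. Sequences are from RefSeq on GRCm38.p6, run 5′ to 3′ on the gene's strand from 250 bases before to 50 bases after the annotated start, and have capitals where the ETS core GGAAGT or its reverse complement ACTTCC occurs. ETS factors include PU.1, a regulator of myeloid genes.
Gpr183, chr14:121965144-121965443, minus strand: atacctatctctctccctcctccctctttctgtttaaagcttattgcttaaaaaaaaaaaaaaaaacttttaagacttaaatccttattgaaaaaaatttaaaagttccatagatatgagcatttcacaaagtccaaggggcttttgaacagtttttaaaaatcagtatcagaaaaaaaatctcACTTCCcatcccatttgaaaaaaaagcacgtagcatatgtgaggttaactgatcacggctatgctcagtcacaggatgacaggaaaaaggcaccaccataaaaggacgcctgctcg
Gpr84, chr15:103310389-103310688, minus strand: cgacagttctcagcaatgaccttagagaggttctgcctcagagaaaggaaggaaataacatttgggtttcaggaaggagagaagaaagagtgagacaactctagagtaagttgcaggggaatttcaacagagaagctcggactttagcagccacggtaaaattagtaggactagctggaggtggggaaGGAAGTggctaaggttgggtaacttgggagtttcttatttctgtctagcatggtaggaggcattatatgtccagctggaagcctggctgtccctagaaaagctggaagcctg
Gpr165, chrX:96713218-96713517, plus strand: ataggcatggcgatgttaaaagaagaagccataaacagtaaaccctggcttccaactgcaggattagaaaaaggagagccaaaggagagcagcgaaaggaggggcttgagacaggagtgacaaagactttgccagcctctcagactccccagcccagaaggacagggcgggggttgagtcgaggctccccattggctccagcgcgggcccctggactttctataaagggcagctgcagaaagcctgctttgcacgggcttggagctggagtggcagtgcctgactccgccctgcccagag
Gpr183 and Gpr84 held 1 match each and Gpr165 held 0. Other receptors with a window were also higher at an unadjusted p under 0.05 in edgeR. Of these Gpr146, Gpr157 and Gpr75 held 0 matches, Adgrg5 held 1 and Adgrf5 held 2. The core was searched on both strands and lies in 23.8% of all 32851 promoter windows of this length. Of the 58 members with a window, 14 (24.1%) held it in at least 1 window, against 26.5% of all genes with a window. A match describes letters in the window and is not a binding site.

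The receptors made up a small and similar share of the RNA in all libraries, 0.234% and 0.207% of counts in the KO-labelled pair and 0.218% and 0.207% in WT. Levels of different genes were compared per length, as mean CPM per kb of exon over the 4 libraries. By that measure the median over the 80 members was 1.42 CPM per kb, and over the 66 members tested it was 1.93 CPM per kb, against 4.30 CPM per kb over all 17696 genes tested. Adgrg1, a receptor of neural progenitors and oligodendrocyte precursors that binds collagen III, stood first at 107 CPM per kb and held 26.8% of all receptor counts. Gpr85, a neuronal orphan, followed at 32.9 CPM per kb. The latrophilin Adgrl1 stood at 16.7, Gpr108, an endomembrane protein, at 14.5, Adgrb2 at 14.3, Gpr19 at 14.1 and Gpr180 at 13.8 CPM per kb. At the low end 15 members averaged under 1 CPM, and 22 members had 0 counts in at least 1 library. The 14 members not tested reached between 3 and 105 counts in their highest library.

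**Figure D1:**
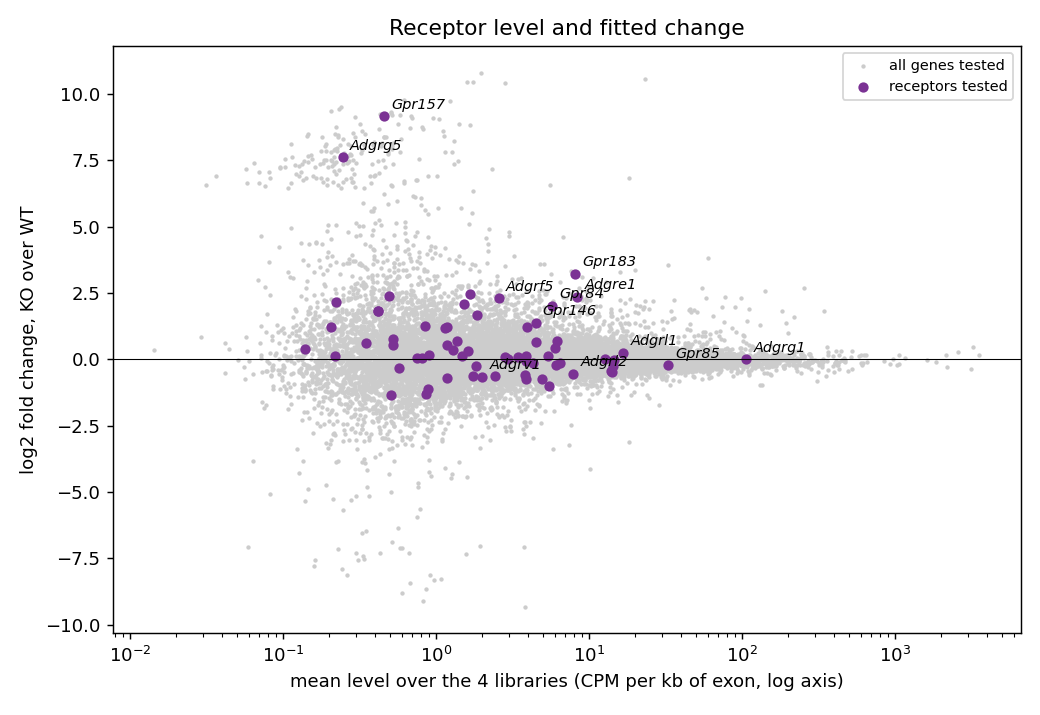
Mean level over the 4 libraries (x, CPM per kb of exon, log axis) against the fitted log2 fold change of the KO-labelled libraries over WT (y). Purple points are the 66 receptors tested and grey points all genes tested. Adgrg1 lies at the right at 107 CPM per kb with a change near 0, while Gpr183 and Adgre1 lie among the larger positive changes at their level.

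None of the 66 receptors tested passed the threshold of 0.05 after Benjamini-Hochberg adjustment over all genes (edgeR quasi-likelihood test), where 3 of 17696 genes (0.017%) passed. At an unadjusted p under 0.05, 13 receptors stood out, where 8.29% of all genes did. Of these 10 were higher in the KO-labelled libraries, where 5.88% of all genes were, and 3 were lower, where 2.41% were. The 10 include Gpr157 and Adgrg5, which had 0 counts in both WT libraries. These receptors met the count filter only through the KO-labelled libraries. DESeq2 called 5 of the 66 (Gpr183, Adgre1, Gpr157, Gpr146 and Adgrf5, all higher), with 2.14% of all genes called, and limma-voom called 1 (Gpr183), with 0.158% called. In edgeR Gpr183 and Adgre1 passed with no filter on low counts, where 0.239% of all genes did, and with genes of at least 5 CPM only, where 0.558% did. Gpr183 alone passed without WT replicate 2, where 0.218% did, and 0 receptors passed with the replicate number as a block, where 0.0226% did. The groups did not overlap for 35 of the 66 receptors (53.0%), against 39.6% of all genes. That lead over all genes was absent when a WT library was left out. The share was 74.6% against 75.1% of all genes without WT replicate 1 and 69.4% against 71.8% without WT replicate 2. It was 75.0% against 61.0% without KO replicate 1 and 82.6% against 65.2% without KO replicate 2. These settings make the separation easier to meet and change the receptors tested, and the source of the lead was not tested. Both KO-labelled libraries lay above both WT libraries for 25 of the 66 receptors (37.9%), against 21.2% of all genes, and below them for 10 (15.2%), against 18.4%. Gpr157 and Adgrg5 are also among the 25. The median log2 fold change was 0.12 over the receptors tested and 0.00 over all genes. It was not stable in size over settings that also change the receptors tested. It was 0.02 over the 41 receptors of at least 5 CPM and 0.28 over all 80 with no filter. When each library was left out it was 0.16 to 0.34, over 69 to 72 receptors.

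**Figure D2:**
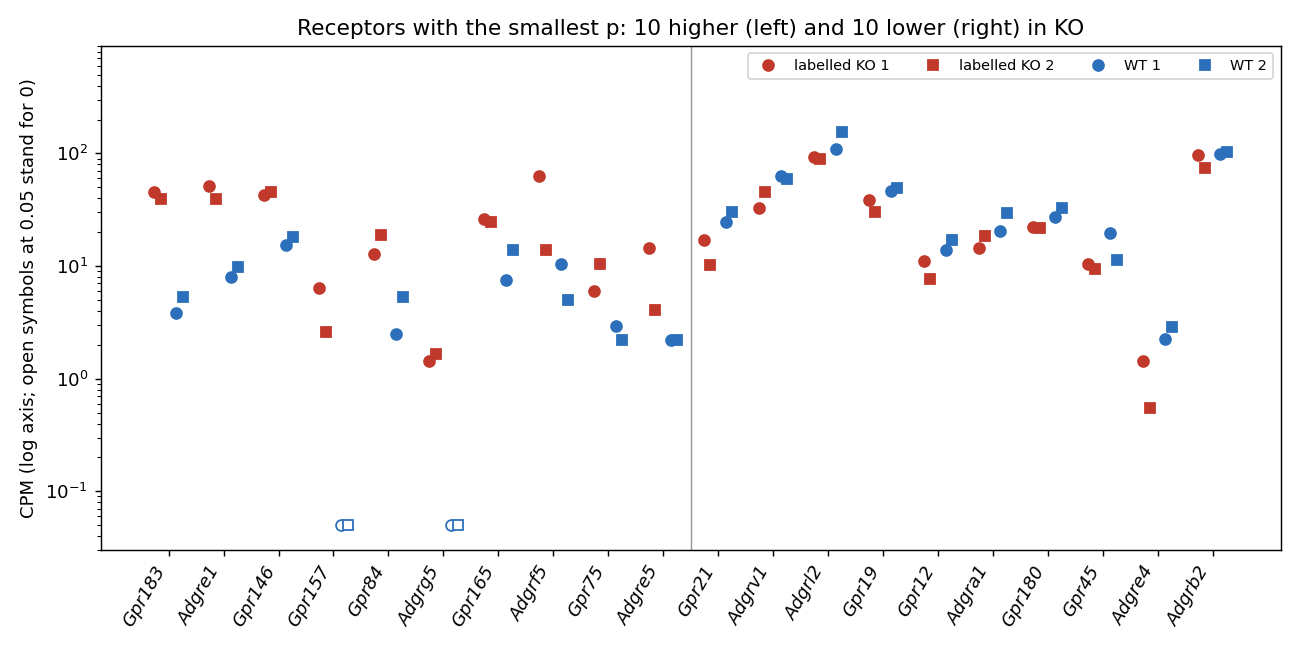
CPM (y, log axis) of the 10 receptors with the smallest p among those higher (left of the line) and among those lower (right) in the KO-labelled libraries, one symbol per library, red for KO and blue for WT. Gpr183 sits at 45.4 and 39.4 CPM in the KO-labelled pair and at 3.79 and 5.28 CPM in WT. Open symbols stand for 0 counts, as in both WT libraries for Gpr157 and Adgrg5.

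Most tested receptors of immune cells stood higher in the KO-labelled libraries than in WT. Of 13 listed members 8 were tested, with a median log2 fold change of 2.11, beside 1.89 for the microglia and macrophage markers. Adgrg5, with 0 counts in both WT libraries, met the count filter only through the KO-labelled libraries. It is part of this median and of the counts that follow. Both KO-labelled libraries lay above both WT libraries for 6 of the 8 (75.0%, against 21.2% of all genes) and below them for 1 (12.5%, against 18.4%). None passed with edgeR, where 5 of the 8 had an unadjusted p under 0.05, all higher, against 5.88% of all genes. DESeq2 called 2, with 2.14% of all genes called. The list median ran from 2.14 to 2.55 when each library was left out, over the 9 or 10 members then tested. In bulk RNA more cells of a type and more RNA per cell cannot be told apart.

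Gpr183 (ENSMUSG00000051212, chromosome 14, 121952331 to 121965193, minus strand), an oxysterol receptor that guides immune cell migration, had 45.4 and 39.4 CPM in the KO-labelled pair and 3.79 and 5.28 CPM in the WT libraries. The groups did not overlap, and the fold change was 9.36 (log2 fold change 3.23 ± 0.31 SE; edgeR, adjusted p = 0.0915). The call depended on the setting. It passed with genes of at least 5 CPM only (adjusted p = 0.0237), with no filter on low counts (0.0270), with limma-voom (0.0442), with DESeq2 (4.43e-13) and in edgeR without WT replicate 2 (0.0395), and the adjusted p reached 0.298 among the other settings. Of the 24 microglia and macrophage markers, 2 had a larger log2 fold change, Pf4 and Lyve1, both genes of macrophages at brain borders. Relative to the summed markers in the same library, Gpr183 stood at 7.96 and 8.45 CPM per 1000 marker CPM in the KO-labelled pair and at 3.31 and 3.31 in WT. Cyp7b1, which encodes an enzyme of oxysterol metabolism linked to the Gpr183 ligand, had 37.2 and 36.9 CPM in the KO-labelled pair and 41.8 and 34.2 CPM in WT, so its groups overlapped.

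Adgre1 (ENSMUSG00000004730, chromosome 17, 57358686 to 57483529), a classic surface antigen of mouse macrophages, had 51.9 and 39.2 CPM in the KO-labelled pair and 7.9999 and 9.73 CPM in WT. It was 5.14-fold higher (log2 fold change 2.36 ± 0.28 SE; edgeR, adjusted p = 0.103). It passed with genes of at least 5 CPM only (0.0331), with no filter (0.0414) and with DESeq2 (5.65e-08), over a range of adjusted p up to 0.580 among the alternatives. Relative to the marker sum it stood at 9.08 and 8.41 CPM per 1000 marker CPM in the KO-labelled pair and at 6.98 and 6.10 in WT, a smaller separation than that of Gpr183.

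Gpr84, a receptor for medium-chain fatty acids on myeloid cells, had 12.9 and 18.7 CPM in the KO-labelled pair and 2.49 and 5.28 CPM in WT (log2 fold change 2.02 ± 0.52 SE; edgeR, adjusted p = 0.389). Relative to the marker sum its groups overlapped, at 2.25 and 4.01 CPM per 1000 marker CPM in the KO-labelled pair and 2.17 and 3.31 in WT. Adgre5, the leukocyte receptor CD97, had 14.5 and 4.05 CPM in the KO-labelled pair and 2.19 and 2.22 CPM in WT. Its log2 fold change of 2.07 ± 0.74 (SE; edgeR, adjusted p = 0.527) was 0.87 without KO replicate 1, and its exons overlap those of Ddx39 on the other strand, so its counts are uncertain where counting did not use strand. Adgrg5, an adhesion receptor of leukocytes, had 23 and 27 counts in the KO-labelled pair and 0 in both WT libraries, at least 8.01-fold higher against a floor of 3 counts per WT library. It did not pass (edgeR, adjusted p = 0.447). Adgrg3, a granulocyte receptor, was too low to be tested, with 105 and 7 counts in the KO-labelled pair and 1 and 0 in WT, and most of it came from KO replicate 1.

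Adgre4 and Gpr171 did not share that direction. Adgre4, a macrophage receptor of mice, had 1.44 and 0.552 CPM in the KO-labelled pair and 2.25 and 2.85 CPM in WT (log2 fold change -1.35 ± 0.99 SE; edgeR, adjusted p = 0.828), so the KO-labelled libraries lay below WT. Gpr171, a receptor of lymphocytes and of neurons, had 2.87 and 10.1 CPM in the KO-labelled pair and 4.09 and 17.5 CPM in WT. In both groups replicate 2 was the higher library, and the groups overlapped. Gpr82 had 9 and 17 counts in the KO-labelled pair and 9 and 6 in WT and was not tested.

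Gpr146 and Gpr165 stood in no role list and were also higher in the KO-labelled libraries. Gpr146 (ENSMUSG00000044197, chromosome 5, 139377697 to 139396415), known for its part in liver cholesterol metabolism in mice, had 42.6 and 45.1 CPM in the KO-labelled pair and 15.5 and 18.2 CPM in WT. It was 2.60-fold higher (log2 fold change 1.38 ± 0.23 SE; edgeR, adjusted p = 0.199) and was called by DESeq2 alone (adjusted p = 0.00227). Gpr165, an X-linked orphan, had 26.0 and 24.4 CPM in the KO-labelled pair and 7.59 and 13.8 CPM in WT (log2 fold change 1.24 ± 0.37 SE; edgeR, adjusted p = 0.455). Both changed less than most microglial markers, 21 and 23 of the 24 having a larger log2 fold change. Relative to the marker sum the order of the groups turned round, with Gpr146 at 7.45 and 9.67 CPM per 1000 marker CPM in the KO-labelled pair and 13.5 and 11.4 in WT. Gpr165 stood at 4.55 and 5.23 in the KO-labelled pair and 6.61 and 8.68 in WT. The part of the marker difference in these values was not tested.

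**Figure D3:**
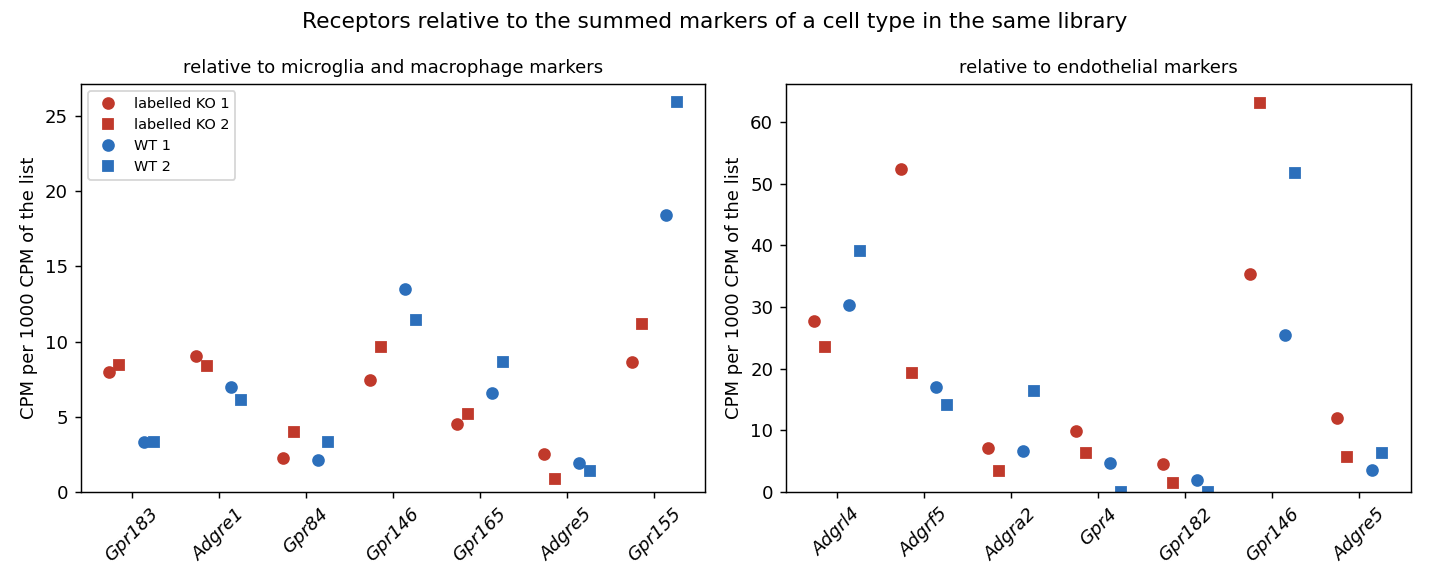
CPM of receptors per 1000 CPM of the summed microglia and macrophage markers (left) and endothelial markers (right) in the same library, one symbol per library, red for KO and blue for WT. Gpr183 lies at 7.96 and 8.45 in the KO-labelled libraries above 3.31 and 3.31 in WT, while Gpr146, Gpr165 and Gpr155 lie lower in the KO-labelled libraries than in WT.

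Vascular receptors were higher in 1 of the KO-labelled libraries more than in the other. All 5 members were above 0 on the log2 scale and their median was 2.32, beside 1.49 for the endothelial markers. That order depended on members with low counts. With genes of at least 5 CPM only, the median was 0.64 over 3 members, beside 1.38 over 15 endothelial markers. The groups did not overlap for 2 of the 5 (40.0%), near the 39.6% of all genes. None passed with edgeR, where 1 had an unadjusted p under 0.05, against 8.29% of all genes. DESeq2 called 1 (Adgrf5), with 2.14% of all genes called. Without KO replicate 1 the median was 0.82, and without KO replicate 2 it was 3.01. Adgrf5, a receptor of endothelium and of lung epithelium, had 63.1 and 13.9 CPM in the KO-labelled pair and 10.4 and 5.01 CPM in WT (log2 fold change 2.32 ± 0.77 SE; edgeR, adjusted p = 0.488). It was 0.85 without KO replicate 1, in which the endothelial markers were also highest. Adgrl4, an endothelial adhesion receptor, had 33.4 and 16.9 CPM in the KO-labelled pair and 18.4 and 13.8 CPM in WT, and its groups overlapped. Adgra2, which acts with Reck in Wnt7 signalling of brain endothelium, had 8.56 and 2.51 CPM in the KO-labelled pair and 4.03 and 5.77 CPM in WT. Its log2 fold change of 0.18 had no stable sign and was -0.96 without KO replicate 1. Gpr4, a proton sensor of endothelium, had 11.9 and 4.54 CPM in the KO-labelled pair and 2.90 and 0 CPM in WT. Relative to the endothelial marker sum Adgrl4 stood at 27.7 and 23.6 CPM per 1000 marker CPM in the KO-labelled pair and 30.4 and 39.1 in WT, and Adgrf5 at 52.3 and 19.4 against 17.1 and 14.2 in WT.

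The latrophilins bind teneurins and FLRT proteins, and the BAI receptors bind C1q-like proteins and other partners. Over these 6 adhesion receptors of synapses the median log2 fold change was -0.04, between -0.54 and 0.25. The median had no stable sign, at -0.17 when WT replicate 1 was left out and 0.10 when WT replicate 2 was. The groups did not overlap for 4 of the 6 (66.7%, against 39.6% of all genes), 2 in each direction. None passed with edgeR, where 1 had an unadjusted p under 0.05, against 8.29% of all genes, and DESeq2 called 0. Adgrl1 had 170 and 142 CPM in the KO-labelled pair and 133 and 129 CPM in WT. Adgrl2 (chromosome 3, 148815583 to 148990555, minus strand) went the other way, with 93.3 and 89.8 CPM in the KO-labelled pair and 110 and 156 CPM in WT (log2 fold change -0.54 ± 0.20 SE; edgeR, adjusted p = 0.55). Its size depended on WT replicate 2, without which it was -0.27. Adgrb2 had 96.4 and 74.3 CPM in the KO-labelled pair and 98.4 and 103 CPM in WT, narrowly without overlap, and Adgrb3 had 100 and 128 CPM in the KO-labelled pair and 104 and 150 CPM in WT, with overlap. Among 19 tested ligands of adhesion receptors 0 passed with edgeR. There an unadjusted p under 0.05 was seen for 2 higher and 1 lower, where 5.88% of all genes were higher and 2.41% lower. DESeq2 called 1 ligand, lower, with 2.14% of all genes called. Of the ligands Col4a1 had 138 and 63.3 CPM in the KO-labelled pair and 83.5 and 37.1 CPM in WT. Wnt7b had 88.4 and 50.5 CPM in the KO-labelled pair and 77.3 and 48.7 CPM in WT.

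Other adhesion receptors had a median log2 fold change of -0.34 over 6 tested members. With KO replicate 2 left out it was -0.26, also over 6 members. Over 7 members it was -0.15 with KO replicate 1 left out, -0.0552 with WT replicate 1 left out and -0.20 with WT replicate 2 left out. It was -0.0389 over 10 members with no filter. Its size thus varied over settings that change the members tested as well as the libraries. Adgrg1 was nearly level between the groups, with 639 and 519 CPM in the KO-labelled pair and 705 and 450 CPM in WT (log2 fold change 0.00 ± 0.23 SE; edgeR, adjusted p = 0.998). The WT libraries spanned the KO-labelled libraries. Adgrv1, a very large receptor needed for hearing, had 32.7 and 45.1 CPM in the KO-labelled pair and 62.8 and 59.3 CPM in WT (log2 fold change -0.65 ± 0.23 SE; edgeR, adjusted p = 0.524), and its groups did not overlap. Adgra1, an orphan, had 14.6 and 18.3 CPM in the KO-labelled pair and 20.3 and 29.5 CPM in WT, again without overlap. Adgra3 had 24.4 and 36.5 CPM in the KO-labelled pair and 32.7 and 31.7 CPM in WT. Adgrd1 had 21 counts in the library labelled KO 2 and none in the other 3.

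Receptors that raise cAMP without a ligand (Gpr3, Gpr6, Gpr12) and the SREB family (Gpr27, Gpr85, Gpr173), whose sequences are highly conserved, had a median log2 fold change of 0.12 over 5 tested members. When each library was left out, the median over the 5 or 6 members then tested was between -0.08 and -0.03. It had no stable sign, but these settings change the members tested as well as the libraries. Gpr85 had 112 and 135 CPM in the KO-labelled pair and 127 and 163 CPM in WT. Gpr12 had 10.9985 and 7.73 CPM in the KO-labelled pair and 13.985 and 16.96 CPM in WT, without overlap (log2 fold change -0.72 ± 0.36 SE; edgeR, adjusted p = 0.694). Gpr173 had 32.1 and 25.4 CPM in the KO-labelled pair and 29.4 and 23.7 CPM in WT, and Gpr27 had 4.81 and 3.37 CPM in the KO-labelled pair and 3.67 and 1.32 CPM in WT. Gpr6 was not tested, with 0 and 2 counts in the KO-labelled pair and 0 and 18 in WT.

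**Figure D4:**
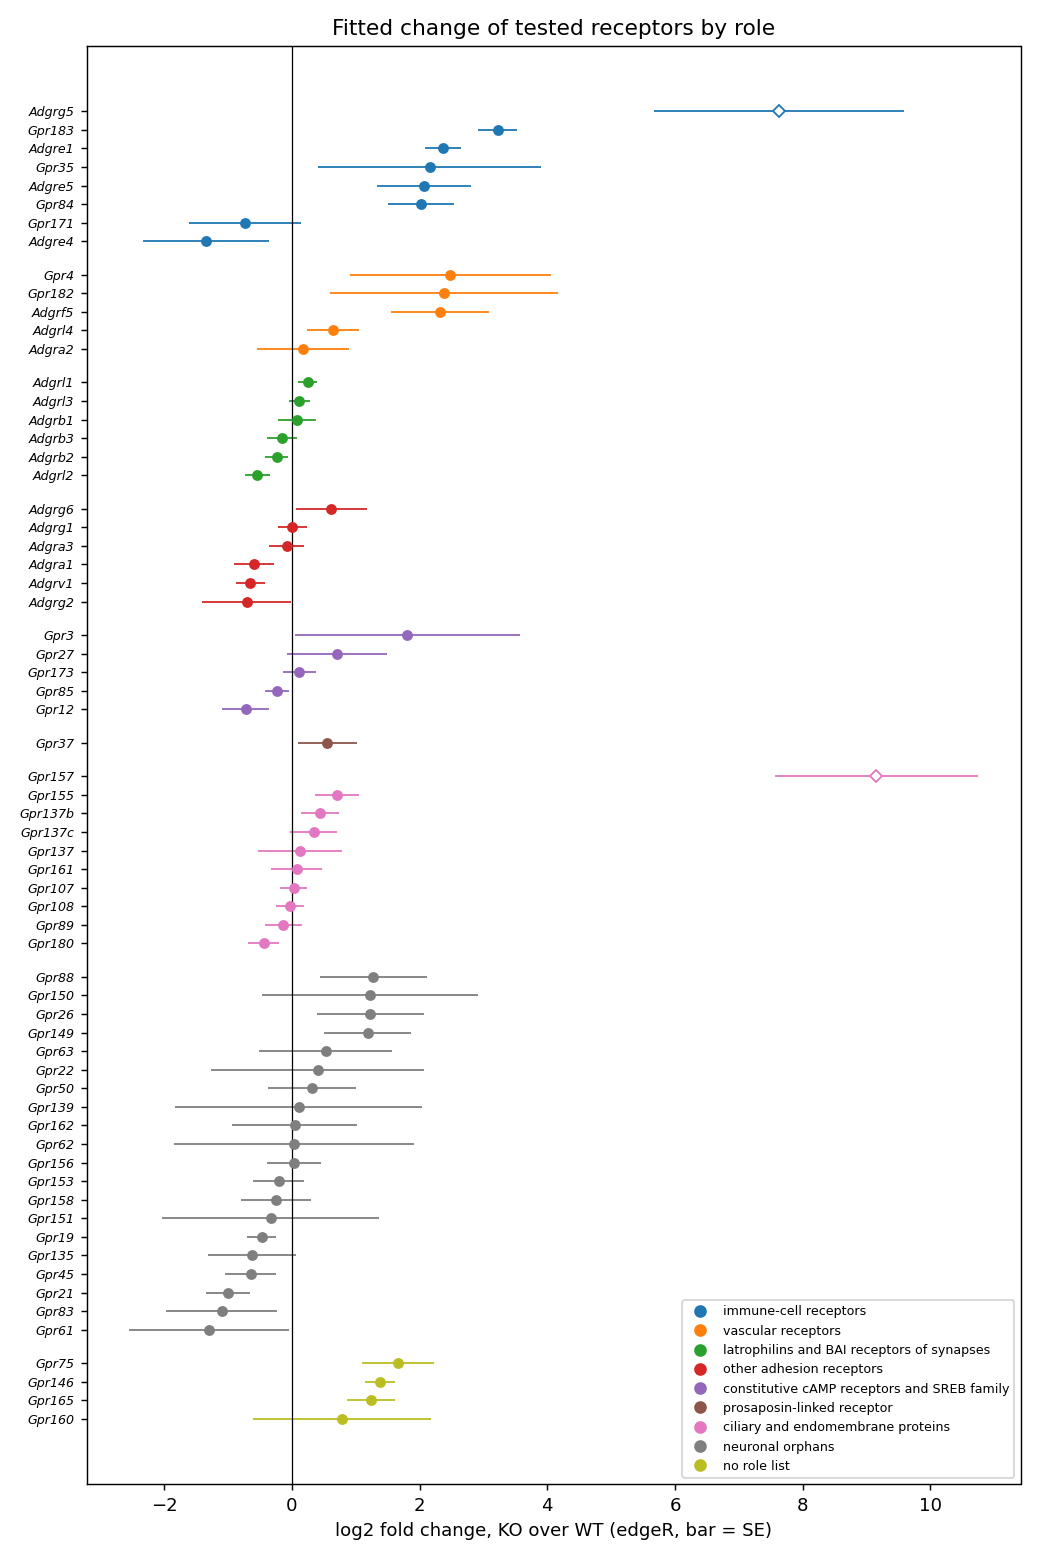
Fitted log2 fold change of the KO-labelled libraries over WT (x, points with SE bars) of all but 1 of the 66 tested receptors (y), coloured by role. Immune-cell and vascular receptors lie mostly right of 0 and synaptic adhesion receptors close to it. Open diamonds mark Gpr157 and Adgrg5, which had 0 counts in both WT libraries, so that their fitted size depends on the prior count.

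For the 10 ciliary and endomembrane proteins tested the median log2 fold change was 0.10, and 7 were above 0. Leaving out KO replicate 2 gave 0.28, WT replicate 1 gave 0.19 and WT replicate 2 gave 0.0375. Gpr157 (ENSMUSG00000047875, chromosome 4, 150087365 to 150105927), a receptor of the primary cilium of radial glia, had 102 and 42 counts in the KO-labelled pair and 0 in both WT libraries. That is at least 23.2-fold higher against a floor of 3 counts per WT library, and Gpr157 met the count filter only through the KO-labelled libraries. It did not pass (edgeR, adjusted p = 0.267) and was called by DESeq2 (0.0013). Gpr155, a lysosomal cholesterol sensor, had 49.5 and 52.1 CPM in the KO-labelled pair and 21.2 and 41.3 CPM in WT (log2 fold change 0.70 ± 0.35 SE; edgeR, adjusted p = 0.684). Relative to the microglia and macrophage markers it lay lower in the KO-labelled libraries, at 8.67 and 11.2 CPM per 1000 marker CPM, against 18.4 and 25.9 in WT. Gpr107, a Golgi protein, had 195 and 133 CPM in the KO-labelled pair and 169 and 154 CPM in WT, and Gpr108, its relative, had 37.2 and 44.9 CPM in the KO-labelled pair and 44.4 and 39.1 CPM in WT, so both overlapped. Gpr137b, a lysosomal protein, had 28.1 and 41.6 CPM in the KO-labelled pair and 22.9 and 28.6 CPM in WT. Gpr180 had 22.2 and 21.8 CPM in the KO-labelled pair and 27.2 and 32.6 CPM in WT, without overlap.

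Neuronal orphans had a median log2 fold change of 0.03 over 20 tested members, 11 above 0 and 9 below. None passed with edgeR, where 1, Gpr21, had an unadjusted p under 0.05, against 8.29% of all genes, and DESeq2 called 0. The median was -0.36 over 20 members without KO replicate 2 and 0.34 over 21 members without WT replicate 1. Gpr19 had 38.6 and 30.4 CPM in the KO-labelled pair and 46.3 and 49.5 CPM in WT (log2 fold change -0.47 ± 0.22 SE; edgeR, adjusted p = 0.666). Gpr45 had 10.499 and 9.32 CPM in the KO-labelled pair and 19.6 and 11.3 CPM in WT. Gpr153 had 17.4 and 26.7 CPM in the KO-labelled pair and 33.5 and 17.5 CPM in WT, and Gpr158, a metabotropic glycine receptor, had 9.69 and 17.7 CPM in the KO-labelled pair and 23.4 and 9.25 CPM in WT. In both of these the WT libraries differed from each other more than the KO-labelled libraries did. Gpr179, a receptor of retinal bipolar cells, was not tested, with 3 and 16 counts in the KO-labelled pair and 0 and 5 in WT.

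For Gpr21 and Gpr75 the counts may be shared with a host gene on the same strand. Gpr21 had 17.1 and 10.3 CPM in the KO-labelled pair and 24.7 and 30.2 CPM in WT (log2 fold change -1.004 ± 0.34 SE; edgeR, adjusted p = 0.499). Its exons overlap Rabgap1, whose own log2 fold change was -0.18. Gpr75, a receptor linked to body weight, had 5.999 and 10.4 CPM in the KO-labelled pair and 2.96 and 2.22 CPM in WT (log2 fold change 1.66 ± 0.57 SE; edgeR, adjusted p = 0.50), and overlaps Asb3, which had a log2 fold change of 0.08. The values of both receptors are uncertain. In all, 26 of the 80 members overlap exons of another gene, 6 of them with a gene on the same strand.

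Gpr37, a receptor of oligodendrocytes linked to prosaposin, had 10.4 and 6.56 CPM in the KO-labelled pair and 5.93 and 5.63 CPM in WT (log2 fold change 0.56 ± 0.47 SE; edgeR, adjusted p = 0.859). Leaving out KO replicate 1 gave 0.19 and leaving out KO replicate 2 gave 0.85. Myelin markers had a median of 0.83 over 9 genes, which was 0.34 over 10 genes without WT replicate 2. Its relative Gpr37l1, an astrocyte receptor outside the name rule, went the other way, at 558 and 500 CPM in the KO-labelled pair and 677 and 596 CPM in WT. Psap, which encodes prosaposin, had 3066 and 3060 CPM in the KO-labelled pair and 2801 and 2697 CPM in WT. Celsr2, an adhesion receptor named as a cadherin, had 210 and 173 CPM in the KO-labelled pair and 195 and 182 CPM in WT.

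Among the proteins that carry receptor signals none passed with edgeR. At an unadjusted p under 0.05, 2 alpha subunits, 3 beta or gamma subunits, 1 kinase or arrestin and 3 cyclases were higher, and 2 beta or gamma subunits and 1 kinase or arrestin were lower, where 5.88% of all genes were higher and 2.41% lower. The lists held 13 alpha subunits, 12 beta or gamma subunits, 7 kinases or arrestins and 9 cyclases. DESeq2 called 1 alpha subunit and 1 cyclase higher and 1 beta or gamma subunit lower, with 2.14% of all genes called. Of 13 G protein alpha subunits 8 were above 0 and 5 below, with a median log2 fold change of 0.16, which was 0.10 without KO replicate 1. Gnai3 had 324 and 290 CPM in the KO-labelled pair and 332 and 264 CPM in WT, and Gnao1 had 270 and 254 CPM in the KO-labelled pair and 336 and 269 CPM in WT. The beta and gamma subunits had a median of 0.08 over 12 genes, between -0.0077 and 0.26 over 12 or 13 genes when each library was left out. Gnb1 lay lower in both KO-labelled libraries, at 588 and 649 CPM against 819 and 803 CPM in WT (log2 fold change -0.39 ± 0.10 SE; edgeR, adjusted p = 0.372). Gng2 had 289 and 363 CPM in the KO-labelled pair and 398 and 430 CPM in WT. Receptor kinases and arrestins had a median of 0.15 over 7 genes, between 0.0747 and 0.24 when each library was left out, with Grk3 at 193 and 165 CPM in the KO-labelled pair and 222 and 268 CPM in WT, and Arrb1 at 100.8 and 83.6 CPM against 60.6 and 88.6 CPM in WT. Adenylyl cyclases, which make cAMP, had a median of 0.43 over 9 genes, which was 0.10 without KO replicate 2 and 0.65 without WT replicate 1. Adcy1, the calcium-sensitive form, had 91.0 and 89.2 CPM in the KO-labelled pair and 54.1 and 57.6 CPM in WT, and Adcy7 had 38.9 and 36.7 CPM in the KO-labelled pair and 22.7 and 20.0 CPM in WT.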

How the data were processed

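RNA was measured in 4 libraries, 2 labelled KO and 2 WT. The authors deposited 4 tables, each with whole-number counts per gene for a library labelled KO and a WT library, per the file headers. The tools HTSeq 0.6.0, TopHat2 2.0.12 and Bowtie2 2.2.3 and the build mm9 are listed without roles, per the submitters' processing notes. Yet 21269 of 23475 positions in the files (90.6%), 66 of the 80 receptors among them, equal GENCODE M21 on GRCm38, so coordinates are read as GRCm38. The sources used here do not say whether counting used strand. A gene is listed for a pair of libraries where both have a count, or where 1 has 0 and the other at least 5. Counts in no table were set to 0 and are at most 4, together at most 0.0193% of a library. Counts of 1 library were equal in all tables.

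The tables were joined by gene and tested with edgeR 4.0.16 (R 4.3.3, TMM, filterByExpr with a minimum count of 10, quasi-likelihood test) over 17696 genes, with p-values adjusted by Benjamini-Hochberg and called under 0.05. The common dispersion was 0.204, on 2 residual degrees of freedom. Each SE was the absolute log2 fold change divided by the square root of F. Each SE thus includes the spread between libraries, while the floors of 3 counts cover counting error only. Replicates differed beyond sampling noise (chi-square of 17.9 per gene for the pair labelled KO, 27.0 for WT). The scripts were first tested on simulated data with 100 genes changed 2-fold and 100 changed 4-fold. There edgeR found 9 and 46 of these and called 5 unchanged genes, so many real changes were missed. DESeq2 found 27 and 53 and called 57 unchanged genes, so its calls were less strict than the threshold. For limma-voom the numbers were 11, 41 and 5. DESeq2 1.42.0 and limma 3.58.1 (voom) were alternatives, with other scalings, filters and left-out libraries.

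The members and lists were chosen with earlier results of these data known, and the ratios to marker sums and the promoter motif were chosen after values were seen. Named were the 4 tested members with the highest mean CPM in each role list, the 10 with the smallest p in each direction, the 5 untested members with the highest count in 1 library and, of each related list, the genes past the threshold or else the 2 with the highest mean CPM. Gpr3, a member of a described family, is named outside that rule. A planned comparison of protein motifs was not run, since it needs protein sequences that were not used here. The values of 1 tested member are not reported here.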

Additional observations from a re-analysis of the deposited data

How the results depend on the processing

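The count of genes called over all genes was 3 in the edgeR test and 378 with DESeq2, 28 with limma-voom, 56 with no filter, 68 with genes of at least 5 CPM only, and from 0 (without KO replicate 2) to 42 (without WT replicate 2) when each library was left out. The count of receptors called was 0 and became 5 with DESeq2, 1 with limma-voom, 2 with no filter and 2 with genes of at least 5 CPM only, and ran from 0 to 1 without each library. Receptors whose groups did not overlap numbered 35, and 22 of the 41 with at least 5 CPM (53.7%, against 40.5% of all genes). With 1 library left out the separation is easier to meet, and the number ran from 50 of 72 (69.4%, against 71.8%, without WT replicate 2) to 57 of 69 (82.6%, against 65.2%, without KO replicate 2). Other scalings moved the median of all genes by at most 0.01 (log2). The labels do not say that a replicate number marks a shared animal or day. Deviations of same-numbered libraries correlated at 0.04, and with a replicate block 4 genes and 0 receptors were called, with a median log2 fold change of 0.11 over the receptors. The log2 fold changes of 39 named receptors and 14 related genes gave 630 values under alternatives, of which 587 kept direction and call, 12 passed where they had not, 0 lost a call and 31 turned sign. The cause was not tested.

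Adgra2 was -0.0431 with limma-voom and -0.0435 with the replicate block, Gpr107 was -0.0027 with limma-voom, and Adgrg1 was -0.0011 with RLE size factors, -0.0011 with DESeq2 and -0.0065 with library totals. With each library left out, log2 fold changes ran from -0.96 to 0.80 for Adgra2, -0.40 to 0.18 for Adgra3, -0.39 to 0.13 for Adgrb3, -0.28 to 0.37 for Adgrg1, -0.12 to 0.15 for Celsr2, -0.17 to 0.12 for Cyp7b1, -0.11 to 0.22 for Gnai3, -0.27 to 0.28 for Gpr107, -0.17 to 0.11 for Gpr108, -0.60 to 0.34 for Gpr153, -0.77 to 0.57 for Gpr158, -1.91 to 0.67 for Gpr171, -0.0583 to 0.28 for Gpr173 and -0.32 to 0.51 for Wnt7b. Depth limits the low receptors: 10 tested members had 0 counts in a library, and 3 counts amount to 0.177 to 0.211 CPM.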
